A study of Mus musculus with 16 samples.

Results

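The 49 genes described here act in mitosis: they drive entry into it, watch over chromosome attachment, condense the chromosomes, build the spindle and split the cell. They were chosen by name, as G2/M regulators and parts of the kinetochore, condensin and cytokinesis machinery with the kinesins left out, from 52636 gene entries in the deposited tables. The rule uses names and no measured value, but it was drawn up with earlier results of these data known. All 49 were found, and all 49 were above the detection floor of 1 RPM (reads per 1000000 sequenced reads) in every library. For the text they were sorted into 6 roles: mitotic entry (11 genes), spindle checkpoint and anaphase-promoting complex (10), centromere and kinetochore (9), chromosomal passenger complex (4), condensin, chromosome structure and anaphase chromatin (7), and spindle assembly and cytokinesis (8).

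The cells were RAW264.7, a mouse macrophage-like tumour line that divides in culture. All groups were transfected with siRNA at 25 nM for 24 h, either a control siRNA or a single siRNA product against Cebpb, which encodes the transcription factor C/EBPβ. After that the cells stayed unstimulated or received isoproterenol, which activates β-adrenergic receptors and so raises cAMP. The sources used here do not give its dose or duration. The resulting 4 groups (control siRNA, Cebpb siRNA, control siRNA with isoproterenol and Cebpb siRNA with isoproterenol) each held 4 libraries, 2 from each of 2 experiments, read by sequencing the 3′ ends of transcripts. Because 1 siRNA product was used, loss of Cebpb and any effect of that siRNA on other transcripts cannot be told apart.

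A cell enters mitosis when cyclin-dependent kinase 1, bound to a B-type cyclin, is freed from inhibitory phosphorylation that the kinase Wee1 places and the Cdc25 phosphatases remove. The spindle checkpoint then holds back the anaphase-promoting complex until every kinetochore is attached to microtubules, after which cyclin B and securin are destroyed and the sister chromatids part. Most of these genes are transcribed in G2 and M, so their RNA is abundant only in cycling cells. In a culture measured as a whole, fewer cells in G2 and M and less of each RNA per cell cannot be told apart.

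Promoters of such genes are known for 2 short elements, the cell cycle genes homology region (CHR), bound by the MuvB complexes, and the CCAAT box, bound by NF-Y. RefSeq promoter windows (GRCm38.p6, 250 bases before to 50 after the annotated start) were matched for 38 of the 49 genes, 40 windows in all, because Ect2 and Prc1 have 2 each. Aurkb, Cdca2, Cdc25c, Smc4, Pbk, Incenp, Tpx2, Spc24, Wee1, Foxm1 and Ccna2 had no matched entry. Shown here as examples are the 120 bases just before the start for 5 genes that hold both elements there. Trip13, the gene that changed most, is shown too and holds neither. Capitals mark the CHR (TTTGAA or TTTAAA) and the CCAAT box, each searched on both strands, so that ATTGG is a CCAAT box on the other strand and TTCAAA a CHR on the other strand.
Ccnb1, chr13:100786487-100786606, minus strand: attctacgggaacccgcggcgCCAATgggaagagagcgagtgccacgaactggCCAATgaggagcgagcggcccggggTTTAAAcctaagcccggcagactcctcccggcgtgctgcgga
Cdk1, chr10:69352913-69353032, minus strand: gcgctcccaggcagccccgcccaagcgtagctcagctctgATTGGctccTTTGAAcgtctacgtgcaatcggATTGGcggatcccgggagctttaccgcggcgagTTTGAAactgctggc
Cdc20, chr4:118437344-118437463, minus strand: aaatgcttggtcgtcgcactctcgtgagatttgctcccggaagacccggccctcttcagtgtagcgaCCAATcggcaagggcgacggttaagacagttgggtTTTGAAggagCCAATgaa
Plk1, chr7:122159315-122159434, plus strand: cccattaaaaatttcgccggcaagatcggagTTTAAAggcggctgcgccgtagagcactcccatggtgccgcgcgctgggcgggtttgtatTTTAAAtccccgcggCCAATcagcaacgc
Top2a, chr11:99024190-99024309, minus strand: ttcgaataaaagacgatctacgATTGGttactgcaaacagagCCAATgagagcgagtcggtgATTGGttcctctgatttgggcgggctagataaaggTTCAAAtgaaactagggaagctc
Trip13, chr13:73937768-73937887, minus strand: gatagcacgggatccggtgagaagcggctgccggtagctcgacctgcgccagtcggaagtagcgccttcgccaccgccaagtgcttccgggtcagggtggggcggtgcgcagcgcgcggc

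A CHR stood in 30 of the 40 windows (75%), against 19.2% of 10673 windows of the tested genes and 27.6% of all 32851 windows in the table. A CCAAT box stood in 31 windows (77.5%), against 38.0% and 37.4%. Both elements occurred together in 27 windows (67.5%), against 7.5% and 10.7%, and CCAAT occurred at 2 or more places in 20 windows. The letters TTGCNNAA, a form of the motif that C/EBP proteins bind, were in none of the 40 windows, against 8.54% of the windows of the tested genes, which says only that these letters are not in these windows. In Cdk1 the CHR began 71 and 15 bases before the start, in Cdc20 18 bases before it and in Ccnb1 42 bases before it.

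**Figure D1:**
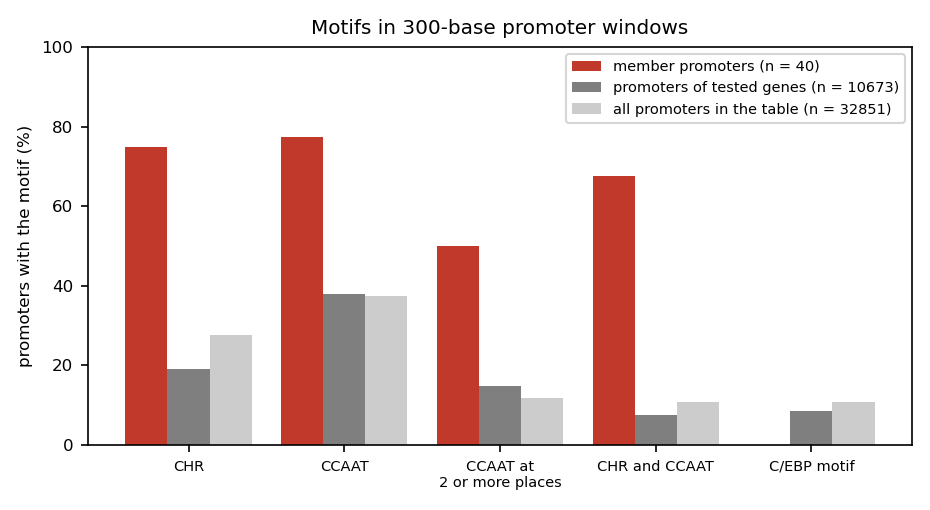
Share of 300-base promoter windows that hold each motif (%), for the 40 windows of the mitotic genes (red), the 10673 windows of the tested genes (dark grey) and all 32851 windows in the table (light grey). The red bars reach 75% for the CHR and 77.5% for CCAAT, and 0 for the C/EBP motif.

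Total sequenced reads per library ranged from 9.42 to 25.17 M, and reads assigned to genes from 5.81 to 15.9 M. Cebpb itself, the gene the siRNA targets, read 61.3 to 87.3 RPM in control siRNA libraries and 11.8 to 33.1 RPM in Cebpb siRNA libraries, and with isoproterenol 78.0 to 100.6 and 23.9 to 28.5 RPM. All 10 macrophage markers examined were detected, with a summed level of 1644 to 2088 RPM in control siRNA and 1953 to 2185 RPM in Cebpb siRNA libraries, while every fibroblast, epithelial and B cell marker examined was at the floor in all 16 libraries, as were 7 of 8 T and NK cell, 6 of 7 neutrophil and 3 of 6 dendritic cell markers. With Cebpb siRNA, 7 of the 10 macrophage markers rose and 1, Cd68, fell. The mitochondrial ribosomal RNA mt-Rnr2 read 17258 to 20167 RPM in control siRNA libraries and 24907 to 27698 RPM in Cebpb siRNA libraries, and 39135 RPM in 1 library of Cebpb siRNA with isoproterenol (experiment 2, replicate 2). The share of unmapped reads was 5.14 to 5.94% in control siRNA and 6.32 to 7.61% in Cebpb siRNA libraries. The part of these shifts in the results below was not tested.

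The first comparison was Cebpb siRNA against control siRNA in unstimulated cells. All 49 mitotic genes fell, 35 of them to less than 50% of control, and none rose. Their median log2 difference was −1.19, which leaves 43.9% of the control level, against a median of 0.02 over all 11044 genes tested. The drop ran from −0.56 for the securin gene Pttg1 to −2.62 for Trip13, with standard errors of 0.058 to 0.19. Across all tested genes 29.8% were called lower and 3482 genes were called higher, at a Benjamini-Hochberg adjusted p under 0.05 in limma, against 49 of 49 here. On the values as deposited, without scaling between libraries, calls over all genes split into 3917 lower and 2726 higher in place of 3294 and 3482, and all 49 were still lower.

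Summed over the 49 genes, RPM was 5473, 5392, 5129 and 5143 in the 4 control siRNA libraries, in the order experiment 1 replicates 1 and 2, then experiment 2 replicates 1 and 2. This order is kept for every list of 4 values. In the Cebpb siRNA libraries the sum was 2115, 2326, 2286 and 1981 RPM, 41.2% of the control mean. No gene of the 49 overlapped between the groups: its highest Cebpb siRNA library was below its lowest control library in every case, which held for 28.1% of all tested genes.

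**Figure D2:**
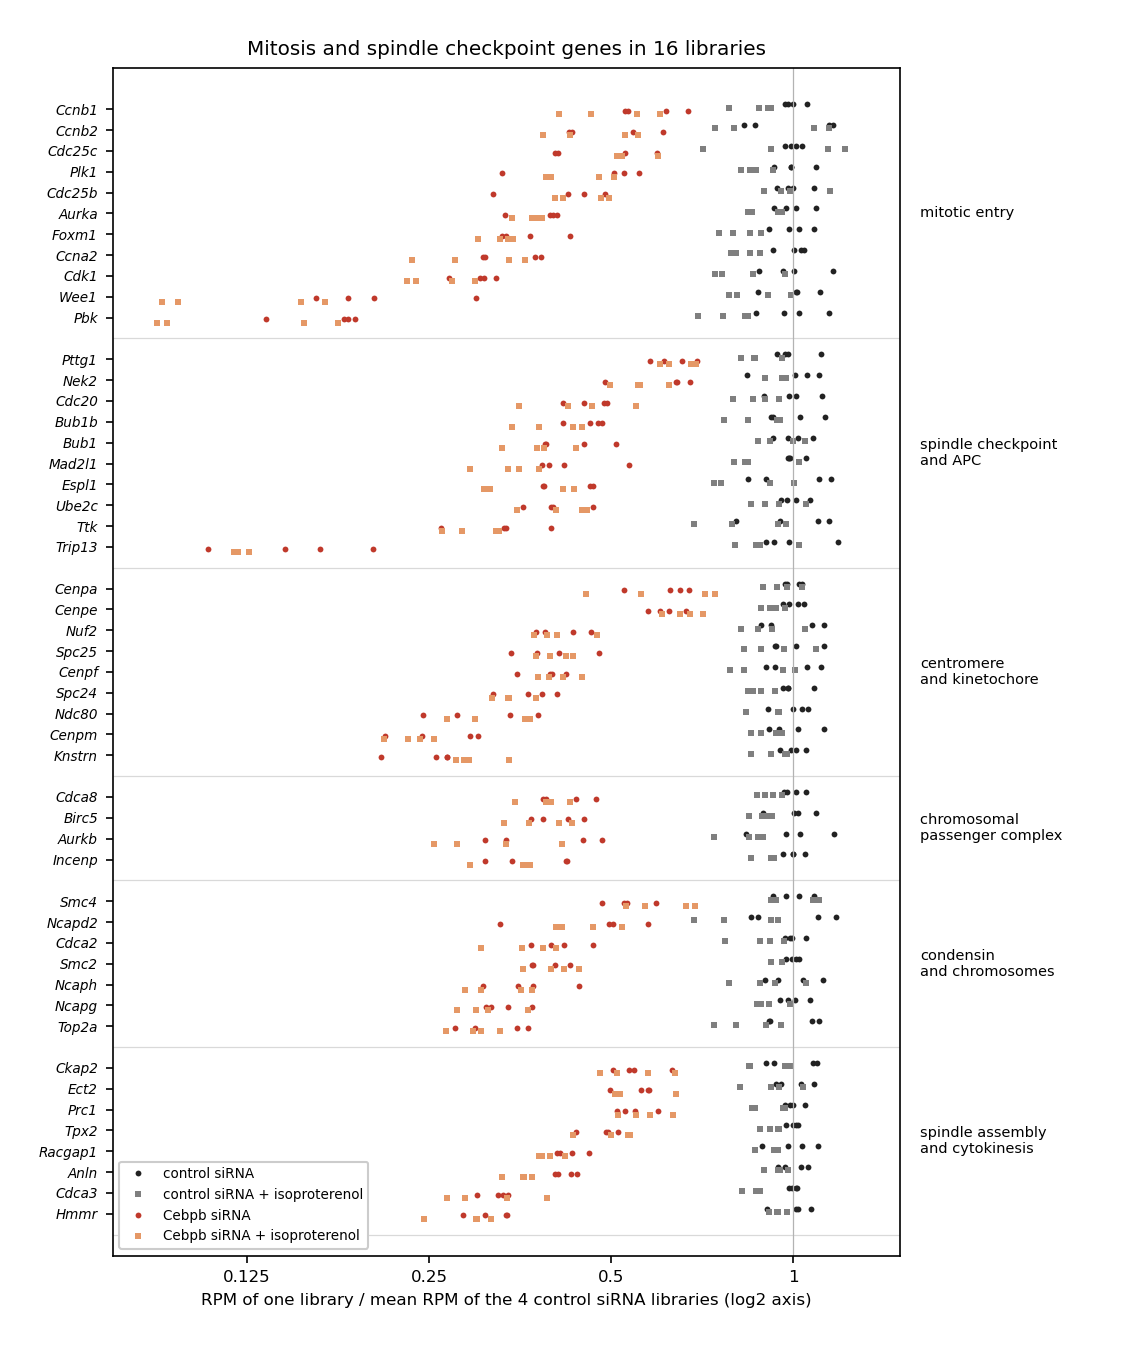
RPM of each of the 49 genes in each library, divided by the mean of its 4 control siRNA libraries, on a log2 axis, with genes ordered within roles by the Cebpb siRNA effect. Circles are unstimulated and squares isoproterenol libraries, black and grey control siRNA and red and orange Cebpb siRNA, and the red and orange points lie left of the black and grey points in every row.

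Among the 11 mitotic entry genes the median difference was −1.29 and 7 fell below 50% of control. Cdk1, the kinase that starts mitosis, read 304, 252, 229.7 and 262 RPM in control siRNA and 79.5, 84.6, 70.6 and 80.9 RPM in Cebpb siRNA libraries. Its level fell to 32.3% of control (log2 difference −1.63 ± 0.07 SE, adjusted p = 4.29e-14), and the highest Cebpb siRNA library was far under the lowest control. Its partner cyclin B1, encoded by Ccnb1, fell least in this role: it read 69.5, 64.8, 64.2 and 66.1 RPM in control and 40.8, 44.3, 35.3 and 34.8 RPM in Cebpb siRNA libraries (log2 difference −0.68 ± 0.08 SE, adjusted p = 6.81e-08). The kinase and its cyclin thus kept 32.3% and 62.4% of their control levels, with no overlap between the groups for either.

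Pbk, which encodes a mitotic protein kinase, fell most in this role, from 65.0, 54.8, 49.2 and 58.1 RPM to 10.3, 10.4, 10.7 and 7.64 RPM (log2 difference −2.45 ± 0.13 SE, adjusted p = 3.76e-13). Wee1, whose product inhibits Cdk1, read 31.0, 28.3, 28.4 and 24.5 RPM in control and 4.56, 5.14, 5.68 and 8.38 RPM in Cebpb siRNA libraries (−2.18 ± 0.19 SE, adjusted p = 5.93e-09). The inhibitor and the kinase it restrains were both lower, and the Wee1 values of the Cebpb siRNA libraries spread from 4.56 to 8.38 RPM. Foxm1, the transcription factor that drives many G2 and M genes, read 41.1, 37.4, 34.7 and 38.8 RPM in control and 12.8, 16.3, 13.9 and 12.5 RPM in Cebpb siRNA libraries (−1.36 ± 0.08 SE, adjusted p = 3.51e-12). It kept 38.9% of its control level, near the median of its role. The other members fell by 0.90 (Ccnb2, cyclin B2) to 1.45 (Ccna2, cyclin A2) on the log2 scale, with Cdc25c (−0.97), Plk1 (−0.99), Cdc25b (−1.17) and Aurka (−1.29) between them. Both Cdc25 phosphatases, which release Cdk1, and the kinases Plk1 and Aurora A, which promote entry, were therefore lower too.

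The 10 genes of the spindle checkpoint and the anaphase-promoting complex held both the largest and the smallest drop of all 49. Trip13 encodes the ATPase that reopens the checkpoint protein Mad2 and turns the signal off. It read 28.3, 29.2, 37.3 and 31.0 RPM in control and 3.39, 4.54, 5.20 and 6.37 RPM in Cebpb siRNA libraries, 16.2% of control (−2.62 ± 0.12 SE, adjusted p = 7.48e-14). Its highest Cebpb siRNA library, 6.37 RPM, was far below its lowest control library, 28.3 RPM.

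Pttg1, securin, which blocks separase until anaphase, fell least, from 109.7, 95.7, 92.9 and 96.8 RPM to 60.4, 68.4, 64.6 and 57.3 RPM (−0.56 ± 0.06 SE, adjusted p = 9.4e-08). Cdc20, the activator that the checkpoint holds in check, read 44.6, 40.6, 45.8 and 50.6 RPM in control and 18.9, 22.1, 22.3 and 20.5 RPM in Cebpb siRNA libraries (−1.02 ± 0.09 SE, adjusted p = 3.51e-09). Neither gene's groups overlapped. Separase (Espl1, −1.13) and the ubiquitin-conjugating enzyme of the complex (Ube2c, −1.21) fell as well. So did the checkpoint kinases Ttk (−1.50) and Bub1 (−1.11), the checkpoint proteins Mad2 (Mad2l1, −1.13) and BubR1 (Bub1b, −1.03) and the centrosomal kinase Nek2 (−0.62).

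Of the 9 centromere and kinetochore genes, 7 fell below 50% of control and the median difference was −1.26. Knstrn, an adaptor between spindle and kinetochore, fell most: 33.2, 31.9, 30.1 and 31.4 RPM became 8.47, 8.14, 8.46 and 6.58 RPM (−1.91 ± 0.08 SE, adjusted p = 2.13e-14). Cenpa, the histone H3 variant that marks the centromere, fell least: 83.1, 79.5, 79.0 and 84.2 RPM became 50.9, 54.8, 42.7 and 52.9 RPM (−0.61 ± 0.10 SE, adjusted p = 1.09e-05). The kinetochore motor gene Cenpe fell about as little, from 164, 177, 173 and 168 RPM to 106, 103, 113 and 98.0 RPM (−0.61 ± 0.06 SE, adjusted p = 1.34e-08). As a share of control, 26.6% was left for Knstrn and 65.7% for Cenpa and Cenpe, without overlap between the groups in any of the 3. The 4 subunits of the Ndc80 complex, which grips the microtubule, fell by 1.61 (Ndc80), 1.17 (Nuf2), 1.35 (Spc24) and 1.23 (Spc25) on the log2 scale. Cenpm, of the inner kinetochore, fell by 1.85 and Cenpf, an outer kinetochore protein, by 1.26.

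The 4 genes of the chromosomal passenger complex moved within the narrowest range of the 6 roles, −1.16 to −1.34. This complex, made of Aurora B kinase, INCENP, survivin and borealin, corrects faulty attachments and later marks the division plane. Incenp, its scaffold, fell from 228, 219, 227 and 238 RPM to 78.1, 96.3, 95.9 and 70.6 RPM (−1.34 ± 0.08 SE, adjusted p = 2.64e-12). Birc5, survivin, fell from 281, 250.001, 306 and 285 RPM to 108, 119, 127 and 103 RPM (−1.20 ± 0.07 SE, adjusted p = 1.84e-12). Borealin, Cdca8, fell from 229, 211, 214 and 221 RPM to 84.2, 103, 95.6 and 85.3 RPM (−1.16 ± 0.06 SE, adjusted p = 8.13e-13). For all 3 the Cebpb siRNA libraries were at about the same fraction of control, 39.6% to 44.9%, and the kinase gene Aurkb was at −1.26.

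In the condensin and chromosome role, 5 of the 7 genes fell below 50% of control. Top2a, the topoisomerase that untangles sister chromatids, fell most in its role, from 867, 891, 739 and 736 RPM to 241, 283, 294 and 223 RPM (−1.54 ± 0.09 SE, adjusted p = 1.55e-12). Smc4, a core ATPase of condensin, fell least, from 318, 350.4, 371 and 335 RPM to 166, 182, 204 and 180.3 RPM (−0.81 ± 0.07 SE, adjusted p = 2.34e-09). The groups did not overlap for either gene. The partner ATPase Smc2 fell by 1.25 on the log2 scale. Of the regulatory subunits of condensin I, Ncapg fell by 1.49, Ncaph by 1.35 and Ncapd2 by 0.99. Cdca2, which targets a phosphatase to anaphase chromatin, fell by 1.19.

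Spindle assembly and cytokinesis had the highest median, −1.04, and 4 of its 8 genes fell below 50% of control. Hmmr, a spindle-associated hyaluronan receptor, fell most: 108, 127, 120.2 and 121 RPM became 40.1, 36.9, 40.0 and 33.9 RPM (−1.57 ± 0.08 SE, adjusted p = 2.03e-13). Ckap2, a spindle microtubule protein, fell least: 24.6, 25.3, 29.7 and 29.3 RPM became 13.7, 17.2, 14.8 and 14.5 RPM (−0.76 ± 0.10 SE, adjusted p = 5.11e-07). Tpx2, the spindle assembly factor that activates Aurora A, went from 197, 196, 193 and 189 RPM to 95.8, 94.962, 99.5 and 84.8 RPM (−0.95 ± 0.06 SE, adjusted p = 2.17e-11). Within each group these 3 genes varied little between libraries compared with the gap between groups. Of the cytokinesis genes, Anln (anillin) fell by 1.16 and Racgap1 by 1.13, while Prc1, which bundles midzone microtubules, fell by 0.78 and Ect2, the RhoA exchange factor, by 0.76. Cdca3, a trigger of mitotic entry placed here, fell by 1.54.

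**Figure D3:**
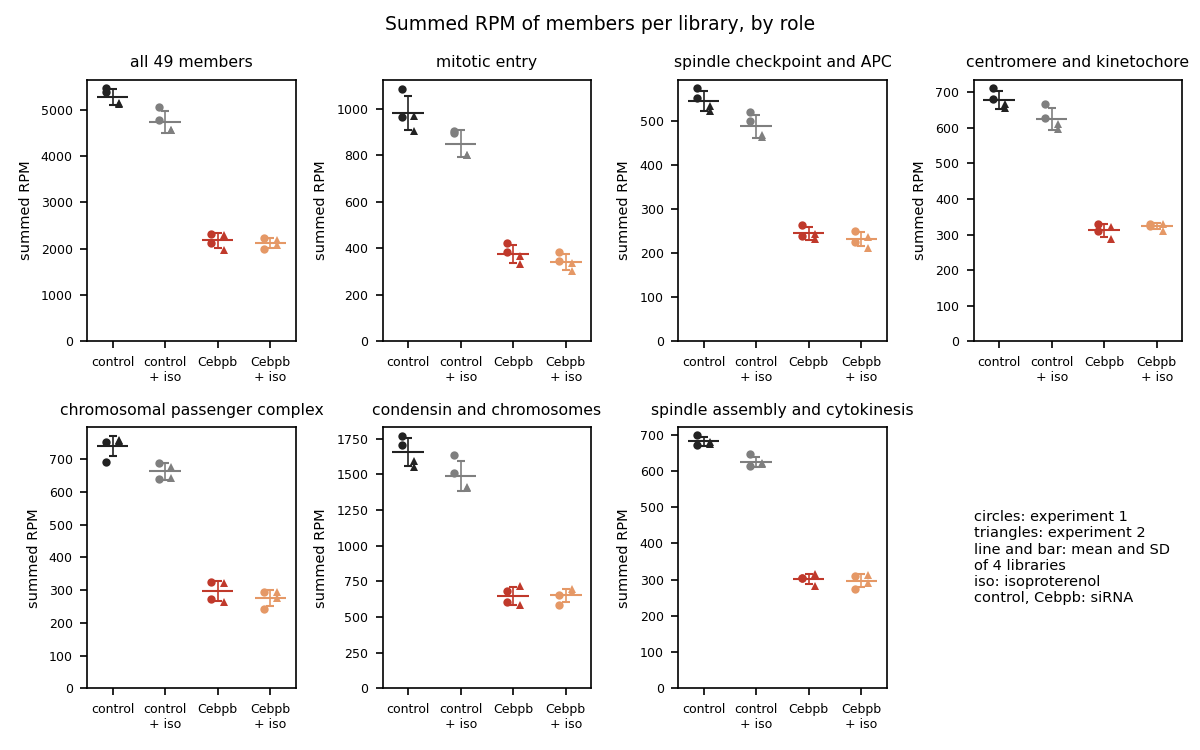
Summed RPM of all 49 genes and of each role in every library, with circles for experiment 1, triangles for experiment 2, and the mean and SD of 4 libraries as line and bar. In all 7 panels the Cebpb siRNA libraries lie below every control siRNA library, for all 49 genes at 1981 to 2326 RPM against 5129 to 5473 RPM.

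The next comparison was Cebpb siRNA against control siRNA with isoproterenol present in both. Its group means come from other libraries than those above. The scaling, the experiment term and the estimate of the spread were shared over all 16 libraries, so its p-values are not independent of the first comparison. Again all 49 genes fell, 34 of them to less than 50%, with a median of −1.15 and a range of −0.36 (Pttg1) to −2.80 (Trip13). Over all tested genes 30% were called lower, and the median was 0.02. The summed RPM was 4790, 5053, 4565 and 4555 in control siRNA and 1998, 2219, 2182 and 2087 in Cebpb siRNA libraries, and the groups did not overlap for any of the 49 genes, against 27.5% of all genes. The 3 largest drops were those of Trip13, Wee1 and Pbk, as without isoproterenol: Trip13 read 27.3, 25.2, 27.7 and 32.1 RPM against 3.79, 3.81, 3.74 and 3.96 RPM, Wee1 fell by 2.75 and Pbk by 2.60 on the log2 scale, and Cenpe fell by 0.42. By role the share of control left ran from 14.4% (Trip13) to 77.9% (Pttg1) in the checkpoint role and from 39.6% (Aurkb) to 45.3% (Birc5) in the passenger complex.

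**Figure D4:**
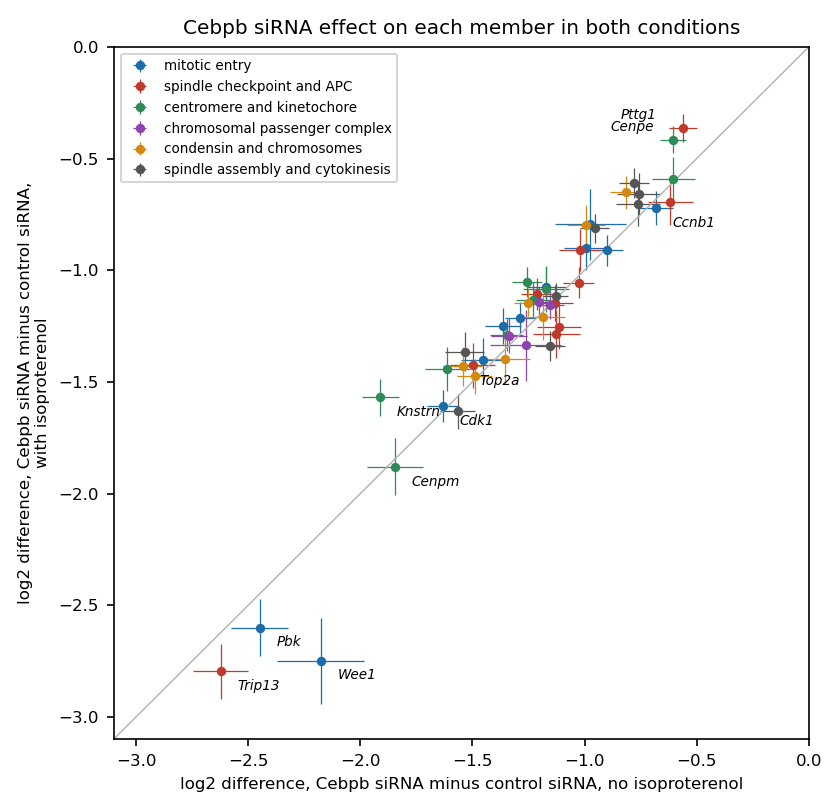
Log2 difference of Cebpb siRNA minus control siRNA for each of the 49 genes, without isoproterenol on the horizontal axis and with it on the vertical axis, with standard errors as bars, colours for roles and a line of equal values. All points lie below 0 on both axes, from Pttg1 (−0.56 and −0.36) to Trip13 (−2.62 and −2.80).

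Isoproterenol itself was followed by small changes. In control siRNA cells 2 of the 49 genes fell, Cdk1 and Foxm1, and none rose, where 0.453% of all tested genes were called lower. Beside this fall, mt-Rnr2 read 20859 to 21937 RPM with isoproterenol, above the 17258 to 20167 RPM without it, and the summed macrophage markers 2237 to 2655 RPM, above 1644 to 2088 RPM, with 3 of the 10 markers called higher and none lower. The part of either in the result was not tested. The estimate was below 0 for all 49 genes, with a median of −0.18 (88.2% of the unstimulated level) and a range of −0.02 (Smc4) to −0.38 (Pbk), against 50.9% of all genes below 0 and a median of −0.0015 over them. Cdk1 went from 304, 252, 229.7 and 262 RPM to 253, 225, 195 and 199.8 RPM (−0.30 ± 0.07 SE, adjusted p = 0.0365). Foxm1 went from 41.1, 37.4, 34.7 and 38.8 RPM to 30.2, 33.7, 32.3 and 28.6 RPM (−0.32 ± 0.08 SE, adjusted p = 0.0493). The Cdk1 groups overlapped, since 253 RPM with isoproterenol in experiment 1 exceeds 2 of the unstimulated values, and within each experiment every isoproterenol library but that one was below both unstimulated libraries. The Foxm1 groups did not overlap.

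Without overlap and lower with isoproterenol in control siRNA cells were 13 of the 49 genes (26.5%), against 1.82% of all tested genes: Ccna2, Ccnb1, Cdca2, Cdca3, Cdca8, Foxm1, Incenp, Pbk, Plk1, Prc1, Smc2, Spc24 and Tpx2. Pbk had the largest estimate and read 47.2, 47.8, 43.4 and 39.5 RPM with isoproterenol against 49.2 to 65.0 RPM without it, but its adjusted p was 0.174. The 2 calls rested on single libraries. Leaving out any 1 of the 8 libraries compared left 0 or 1 of them, and leaving out replicate 2 of experiment 1 or replicate 1 of experiment 2 of Cebpb siRNA with isoproterenol left 1. Within experiment 1 alone 2 genes were called and within experiment 2 alone 0, while a fit with only the 8 libraries compared called 18. The share of all tested genes called in that fit is not given, so the 18 are not read as a result.

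In Cebpb siRNA cells isoproterenol was followed by a fall of 8 of the 49 genes, where 2.64% of all tested genes were called lower, and none rose. Here mt-Rnr2 read 27614 to 39135 RPM with isoproterenol against 24907 to 27698 RPM without it, and the summed macrophage markers 2071 to 2599 RPM against 1953 to 2185 RPM, both with overlap, and 2 of the 10 markers were called higher and none lower. Their part in the result was not tested either. The estimate was below 0 for 41 of the 49 genes, with a median of −0.15 after scaling. The share of all tested genes below 0 is not given for this comparison, so the 41 are not read as a result. Before scaling, the mean summed RPM of the 49 genes with isoproterenol was 97.5% of that without it, against 89.7% in control siRNA cells. The 8 were the entry genes Wee1, Pbk, Cdk1 and Ccnb1, the checkpoint genes Mad2l1, Bub1b and Espl1, and Anln. Wee1 went from 4.56, 5.14, 5.68 and 8.38 RPM to 2.70, 4.31, 4.72 and 2.54 RPM (−0.81 ± 0.19 SE, adjusted p = 0.0163). The groups overlapped, since 4.72 RPM with isoproterenol is above 4.56 RPM without it, and 8.38 RPM stood above the other unstimulated values. Pbk went from 10.3, 10.4, 10.7 and 7.64 RPM to 8.83, 10.0, 5.24 and 5.04 RPM (−0.53 ± 0.13 SE, adjusted p = 0.0132), and its 2 lowest libraries were those of experiment 2.

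Mad2l1 went from 14.6, 15.1, 15.9 and 20.4 RPM to 13.4, 14.5, 12.9 and 11.2 RPM (−0.40 ± 0.11 SE, adjusted p = 0.0295). Anln went from 27.2, 27.6, 29.6 and 29.0 RPM to 24.2, 24.9, 24.2 and 22.3 RPM (−0.30 ± 0.07 SE, adjusted p = 0.00869). These were the only members of the 49 whose groups did not overlap here (2 of 49, 4.08%, against 1.55% of all genes). Cdk1 read 71.4, 78.0, 60.3 and 62.3 RPM with isoproterenol, against 70.6 to 84.6 RPM without it (−0.28 ± 0.07 SE, adjusted p = 0.0273). Ccnb1 read 39.8, 36.5, 30.7 and 27.1 RPM, against 34.8 to 44.3 RPM (−0.28 ± 0.08 SE, adjusted p = 0.0323). For both, the lower isoproterenol values were those of experiment 2.

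Bub1b read 23.4, 24.2, 20.6 and 18.6 RPM with isoproterenol, against 22.5 to 26.2 RPM without it (−0.26 ± 0.07 SE, adjusted p = 0.0309). Espl1 read 10.7, 11.2, 7.95 and 8.12 RPM, against 9.93 to 11.999 RPM (−0.27 ± 0.08 SE, adjusted p = 0.049). Both overlapped between the groups. In the other direction the largest estimates were Knstrn (0.20, adjusted p = 0.177) and Smc4 (0.14, adjusted p = 0.293), and neither passed. Each of the 4 Cebpb siRNA with isoproterenol libraries mattered: without replicate 1 or 2 of experiment 1 the calls were 5 in either case, without replicate 1 of experiment 2 they were 2, and without its replicate 2, the library with the highest mt-Rnr2, 1. No other single library took the count below 6, and within the experiments alone the counts were 0 and 2.

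**Figure D5:**
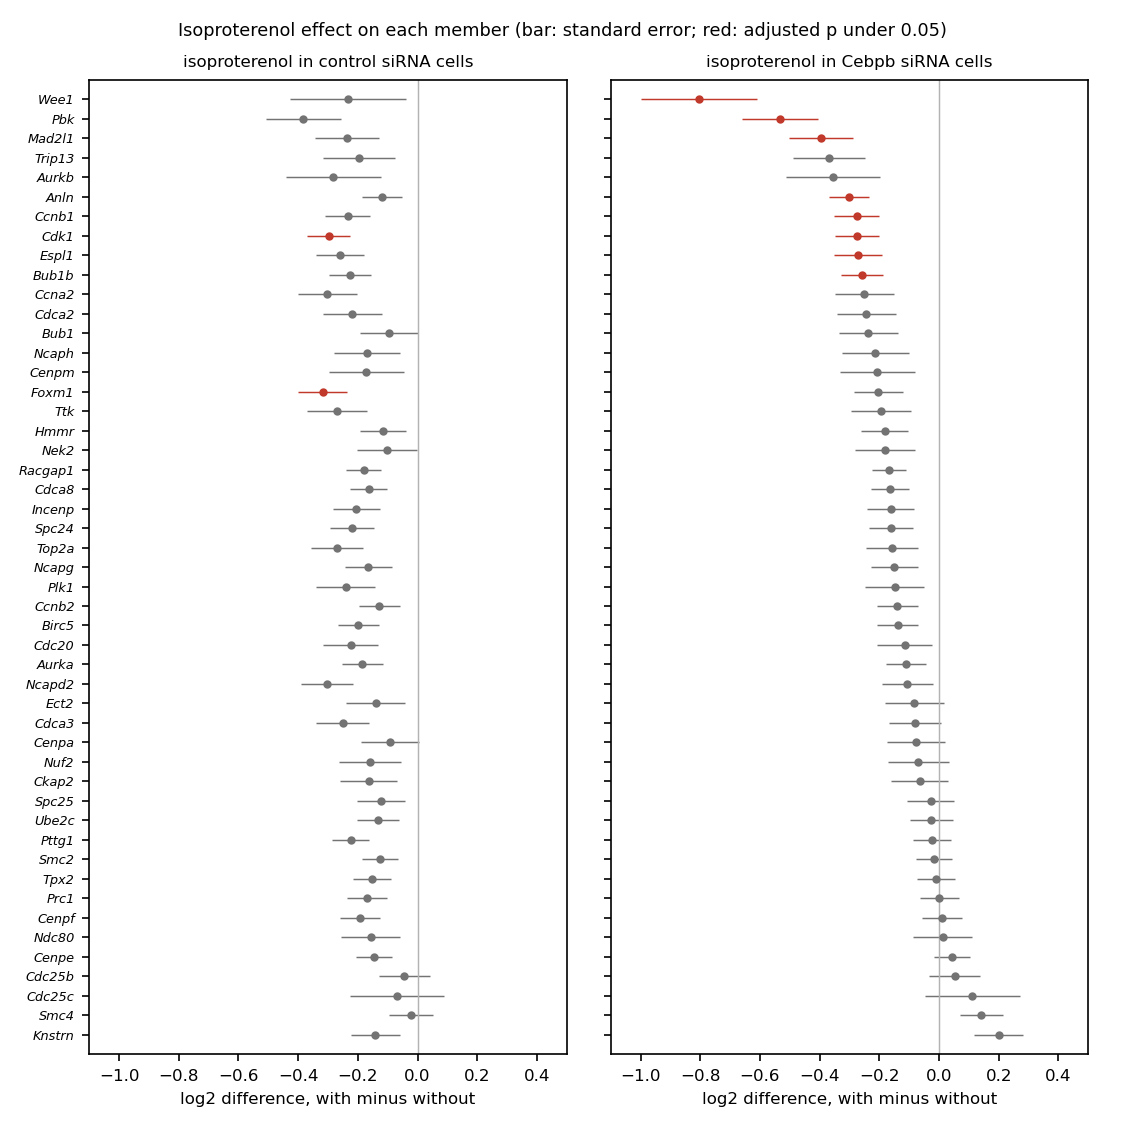
Log2 difference with minus without isoproterenol for each of the 49 genes, in control siRNA cells (left) and Cebpb siRNA cells (right), with standard errors as bars and red for an adjusted p under 0.05 in limma. All 49 points on the left and 41 on the right lie below 0, and red marks 2 genes on the left and 8 on the right.

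Whether isoproterenol acted differently in the 2 siRNA backgrounds was tested as the difference of its effects, which shares its libraries with the comparisons above. None of the 49 genes passed in limma, where 0.226% of all tested genes were called in either direction, and 5 had an unadjusted p under 0.05: Knstrn, Cenpe, Pttg1, Cenpf and Wee1. The share of all tested genes under that unadjusted p is not given, so the 5 are not read as a result. The largest differences were Wee1 (−0.57 ± 0.27 SE, adjusted p = 0.784) and Knstrn (0.34 ± 0.12 SE, adjusted p = 0.469). Standard errors of the difference were 0.082 to 0.27, so the count of 2 in one background and 8 in the other is not shown to differ. Knstrn illustrates the sizes in play. With isoproterenol it read 30.6, 30.9, 26.9 and 29.1 RPM in control siRNA and 9.19, 10.7, 9.02 and 8.75 RPM in Cebpb siRNA libraries. The latter were all above the 6.58 to 8.47 RPM of Cebpb siRNA alone, but this rise was not called in limma (adjusted p = 0.177). The share of all tested genes higher without overlap is not given, so the Knstrn rise is not read as a result.

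The 2 experiments differed for some of the genes. The fitted log2 shift of experiment 2 against experiment 1 had a median of −0.08 and ran from −0.46 (Ccnb2) to 0.25 (Trip13). Ccnb2, for example, read 56.8 and 57.5 RPM in the control siRNA libraries of experiment 1 and 41.0 and 42.8 RPM in those of experiment 2. Within experiment 1 alone and within experiment 2 alone all 49 genes were called lower with Cebpb siRNA, both with and without isoproterenol, with median differences without it of −1.25 and −1.19.

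Other genes of mitosis, 127 in 6 lists, were tested beside the 49. With Cebpb siRNA 92 fell and 9 rose without isoproterenol (median −0.81), and 88 fell and 13 rose with it (median −0.76). Over all tested genes 29.8% were called lower without isoproterenol and 30% with it. Of the 32 further kinetochore genes 28 fell and none rose (median −1.22), and all 5 genes of condensin II and chromosome structure fell (median −1.14). Of 34 spindle and cytokinesis genes 27 fell and 3 rose (median −0.94), and of 24 entry kinases, phosphatases and regulators 17 fell and 2 rose (median −0.71). The lists that moved least were cohesin and its protectors, and the anaphase-promoting complex. In the cohesin list 9 of 15 were lower and 3 higher (median −0.41). In the list of the complex 6 of 17 were lower and 1 higher (median −0.14). The 6 of 17 are near the 29.8% called lower over all tested genes and are not read as a result. None of the 127 was called with isoproterenol in control siRNA cells in limma, with 35 at an unadjusted p under 0.05. The share of all tested genes under that p is not given, so the 35 are not read as a result. In Cebpb siRNA cells 7 fell, where 2.64% of all tested genes were called lower.

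The 3 largest drops among them were Mybl2 (−2.51), a transcription factor that works with the MuvB complex, Cep55 (−2.16), which acts at abscission, and Oip5 (−1.999), which helps to load Cenpa. Mybl2 read 25.0 to 29.8 RPM in control and 3.76 to 5.88 RPM in Cebpb siRNA libraries, and Cep55 read 60.9 to 72.1 and 13.2 to 14.3 RPM. Oip5 read 5.06 to 5.67 RPM in control libraries and was at the floor in 2 of the 4 Cebpb siRNA libraries, so that its log2 difference understates the drop. The 3 largest rises were Psrc1 (0.98), a spindle microtubule protein, Nipbl (0.48), the cohesin loader, and Cdc26 (0.45), a small subunit of the anaphase-promoting complex. Psrc1 read 6.65 to 9.29 RPM in control and 11.3 to 20.2 RPM in Cebpb siRNA libraries, and Nipbl 148 to 171 and 199.9 to 227 RPM, while the Cdc26 groups overlapped.

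Genes of G1/S and DNA replication, listed for comparison, also fell: 42 of 42 with Cebpb siRNA, with a median of −1.27 without isoproterenol and −1.37 with it. With Cebpb siRNA 29.8% of all tested genes were called lower without isoproterenol and 30% with it. In Cebpb siRNA cells 15 of these 42 were lower with isoproterenol, where 2.64% of all tested genes were called lower. In control siRNA cells 1 was, against 0.453% of all tested genes. The difference of isoproterenol effects is not given for this list, so the counts of 15 and 1 are not compared. How far they rest on single libraries was not examined. The drop with Cebpb siRNA was therefore measured in genes of both phases of the cell cycle.

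What is shared by the 49 genes besides their function was described from sequence. Genes with a CHR in a promoter window (28 of 38) had a median difference of −1.16 with Cebpb siRNA, and those without one (10) −1.17. Genes with a CCAAT box (29) had −1.13 and those without one (9) −1.20. Trip13 and Pttg1, the ends of the range, both lacked both elements in these windows. The windows of Pttg1, Cenpm, Cdca8 and Cdca3 lie wholly inside the genes as GENCODE annotates them. They do not cover the bases before those starts. The medians with and without each element were thus close, and their difference was not tested.

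In the 3′ UTR, the words AACTTGT and ACTTGTA were searched on the transcript strand, in the longest annotated UTR of each gene (GENCODE vM21, GRCm38). These words were known from an earlier search of the same fold changes, so the values below are a description. AACTTGT was in 8 of the 49 genes (16.3%) and in 14.9% of 10114 tested genes with an annotated UTR. Either word was in 11 of the 49 (22.4%) and in 21.9% of the tested genes. Shown are the sites of Trip13, Wee1, Knstrn and Cenpm, which were among the 5 genes that fell most, and of Pttg1, which fell least, with the word in capitals and 10 bases on each side.
Trip13, chr13:73912637-73912663, minus strand: cagtcattttACTTGTAtttcaagtga
Trip13, chr13:73912456-73912482, minus strand: tgtaatattaAACTTGTtttcagaatt
Wee1, chr7:110142576-110142602, plus strand: tgtgaattacACTTGTAtatccaactg
Knstrn, chr2:118837039-118837065, plus strand: cagctacagcACTTGTAgcccagtact
Cenpm, chr15:82233836-82233862, minus strand: tgctccctacAACTTGTtggtctctct
Pttg1, chr11:43420766-43420792, minus strand: gactgacagtAACTTGTcaaccactga

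The 11 genes with either word had a median difference of −1.57 with Cebpb siRNA without isoproterenol (−1.44 with it) and a median UTR length of 796 bases. The 38 genes with neither word had −1.16 (−1.11) and 593.5 bases. Over all tested genes with an annotated UTR the medians were −0.20 for the 2218 genes with either word and 0.07 for the 7896 with neither. Their median UTR lengths were 2378 and 956 bases, and the part of length in these medians was not tested. All 38 genes with neither word were also called lower, Pbk among them at −2.45, and Pttg1 holds AACTTGT and fell least. Any part of the words in the drop was not tested.

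Reads of overlapping genes limit some values. In the annotation 14 of the 49 genes share exon sequence with another gene, 6 of them with a tested one: Ccna2 with Exosc9, Cdc20 with Elovl1, Cdc25b with Spef1, Cdca8 with 9930104L06Rik, Ncapg with Lcorl and Prc1 with Rccd1. Each of these partners lies on the opposite strand, and the sources used here do not say whether reads were counted by strand. The annotated pseudogenes Ccnb1-ps and Ccnb2-ps were listed at 0 in all 16 libraries, and nor do they say how reads matching both a gene and its copy were assigned.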

How the data were processed

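RNA was measured by 3′-end sequencing (QuantSeq 3′ FWD) in 16 libraries. The authors deposited log2 RPM, that is reads per gene per 1000000 sequenced reads, and a gene at or below 1 RPM has the value 0 in their tables. The submitters' processing notes name STAR 2.5.3a and the genome build GRCm38, while the sources used here name no counting tool. Whole reads could be recovered for 100% of the values within 0.1 read, so 1 RPM stood for 9 to 25 reads per library, and this sets the precision of low values.

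Values were scaled between libraries by the mean log ratio to the average of all libraries, over genes above 0 in every library, after trimming 30% by ratio and 5% by level at each end and raised to a common floor of 1.084 RPM. The 11044 genes above the floor in at least 4 libraries were fitted in limma 3.58.1 (R 4.3.3) with group and experiment terms over all 16 libraries, with trend and robust estimation. P-values were adjusted by Benjamini-Hochberg over all 11044 genes, with a threshold of 0.05. Fold changes are on the log2 scale after the floor, and RPM values are printed as deposited, before scaling. The design text calls the libraries biological replicates, but labels do not say that they came from separate cultures, so p-values measure the spread between these libraries. The 5 comparisons share libraries and one estimate of the spread.

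The genes and lists were chosen with earlier results of these data known. Values by library are given for the members with the smallest and largest log2 difference and the highest mean RPM in each role, for every member called in an isoproterenol comparison, and for Cdk1, Ccnb1, Cdc20, Foxm1, Trip13, Wee1 and Pbk. The fit was tested on simulated data. Alternatives were other scaling, filters, offsets and model terms, each experiment alone, and leaving out each library. Sequences came from the RefSeq promoter table and GENCODE vM21.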

Additional observations from a re-analysis of the deposited data

Results flagged for a closer look

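Among the 23 genes with values printed by library, 92 groups of 4 libraries were examined for 1 library far from the others, and 3 were found, where chance gives about 1 in 20. Incenp in Cebpb siRNA with isoproterenol was low in replicate 1 of experiment 1, at 66.691 RPM against 81.4 to 83.7 RPM. Mad2l1 in control siRNA was high in replicate 2 of experiment 1, at 39.998 RPM against 37.4 to 37.7 RPM. Pbk in Cebpb siRNA was low in replicate 2 of experiment 2, the library with the fewest reads, at 7.641 RPM against 10.3 to 10.7 RPM.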

How the results depend on the processing

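With Cebpb siRNA, all 49 genes were called lower, with and without isoproterenol, under all 12 alternatives and after leaving out each of the 16 libraries. For isoproterenol in control siRNA cells the 2 calls became 0 on values as deposited, without a filter beyond 1 library, without the experiment term, without trend and in experiment 2 alone, 1 without robust estimation and 18 with only the compared libraries. They ranged from 0 to 3 when single libraries were left out. In Cebpb siRNA cells the 8 calls became 3 on values as deposited, 2 without the experiment term, without trend and in experiment 2 alone, and 0 with only the compared libraries or only experiment 1. They ranged from 1 to 7 when single libraries were left out. The causes of these changes in count were not tested, and some fits held fewer libraries. The share of all tested genes called in each of these fits is not given. With a replicate block the counts were 49, 49, 1, 7 and 0. Deviations of same-numbered libraries from the mean of their group and experiment correlated at −0.192 to 0.232 across genes. These values show no steady pairing. Each rests on 2 libraries per group, so they cannot decide whether the numbers mark a shared culture or day. The difference of isoproterenol effects gave 0 in every fit made. Of 3024 values for single genes, 110 lost their call and 0 reversed. Calls over all genes were 48.6% lower with Cebpb siRNA after scaling and 58.96% as deposited; with isoproterenol they were 27.9% against 15.7% in control and 48.3% against 25.2% in Cebpb siRNA cells. Depth limits the members nearest the floor after Cebpb siRNA, among them Cenpm (2.20 to 3.15 RPM), Cdc25c (2.30 to 3.41 RPM) and Wee1 (2.54 to 8.38 RPM).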
